A study of Drosophila melanogaster and Drosophila yakuba and Drosophila virilis with 31 samples.

Results

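A fly egg is loaded by its mother with messenger RNA before it is laid. This maternal deposit runs the first nuclear divisions, and at the blastoderm stage it is degraded while the zygotic genome takes over transcription. The transcripts described here were plentiful in the unfertilized eggs of at least 1 of 4 *Drosophila* species and nearly absent from those of at least 1 other. They were chosen by egg level alone. The mean over the eggs of a species had to reach 20 FPKM (reads scaled to transcript length and library size, after normalization to the 75th percentile of each library) in the highest species and to stay below 0.5 FPKM in the lowest. A species with a mean below 0.5 FPKM is called lacking. The rule took 211 of 5993 genes (3.52%), or 5.44% of the 3876 genes that reached 20 FPKM in the eggs of some species. Egg levels selected these members and are therefore given as a description, with no test.

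The study sequenced single individuals of D. melanogaster strain Oregon-R (mel), D. yakuba strain Tai18E2 (yak), D. pseudoobscura strain MV2-25 (pse) and D. virilis strain V46 (vir). No mutation, drug or other treatment was applied, and mothers were 3 to 5 days old. Embryos were taken at room temperature at the end of the blastoderm stage, when cellularization is complete and gastrulation has not begun, and were sexed by PCR. The 22 kept embryos are 3 females and 3 males each of mel and yak, 2 females and 3 males of pse, and 3 females and 2 males of vir. The 7 eggs, unfertilized, are 2 per species except for pse with 1. The study removed 1 pse female and 1 vir male embryo for low quality. Embryos were drawn from many mothers, so a shared mother is unlikely, though mothers are not named for single embryos. Embryo means given below weight the sexes equally. Each strain stands for its species with a single line, and pse rests on 1 egg.

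Depth is unknown, because the values are FPKM and not counts of reads. Between 225 and 675 genes were listed at 0 in an embryo and between 848 and 1150 in an egg. None of the 55 cytoplasmic ribosomal protein genes was at 0 in any kept library. The stage labels held: 12 egg markers such as bcd, nos and osk summed to between 167 and 740 FPKM in embryos and to between 1482 and 2375 FPKM in eggs. Some of these markers went the other way in single species. The mean of stau was higher in embryos than in eggs of mel, yak and pse. So were those of Tl in yak (167 against 123 FPKM) and aub in pse (303 against 116 FPKM). A further 17 zygotic markers such as eve, ftz and Kr summed to between 879 and 1493 FPKM in embryos and to at most 2.95 FPKM in eggs. The 3 follicle cell markers present in the tables summed to at most 0.792 FPKM in an egg, and no member belongs to any of these lists. In whole single embryos, fewer cells with a transcript and less transcript per cell cannot be told apart.

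Of the 211 members, 131 were lacking in 1 species, 50 in 2 and 30 in 3, which gives 321 pairs of a member and a lacking species. The vir eggs lacked the most, 108 members, pse eggs 85, mel eggs 64 and yak eggs 64. The commonest of the 14 patterns were absence from vir alone (65 members) and from pse alone (34 members), followed by pse and vir together (20) and yak alone (20). Another 15 were present in vir eggs only, 13 were lacking in mel and yak, and 12 in mel alone. Small groups were lacking in mel, yak and vir (8), in mel, pse and vir (6), in mel and pse (5), in mel and vir (5), in yak and pse (4), in yak and vir (3), and in yak, pse and vir (1). The closely related mel and yak were on the same side for most members: 36 were lacking in both, 119 in neither and 56 in one of them.

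**Figure D1:**
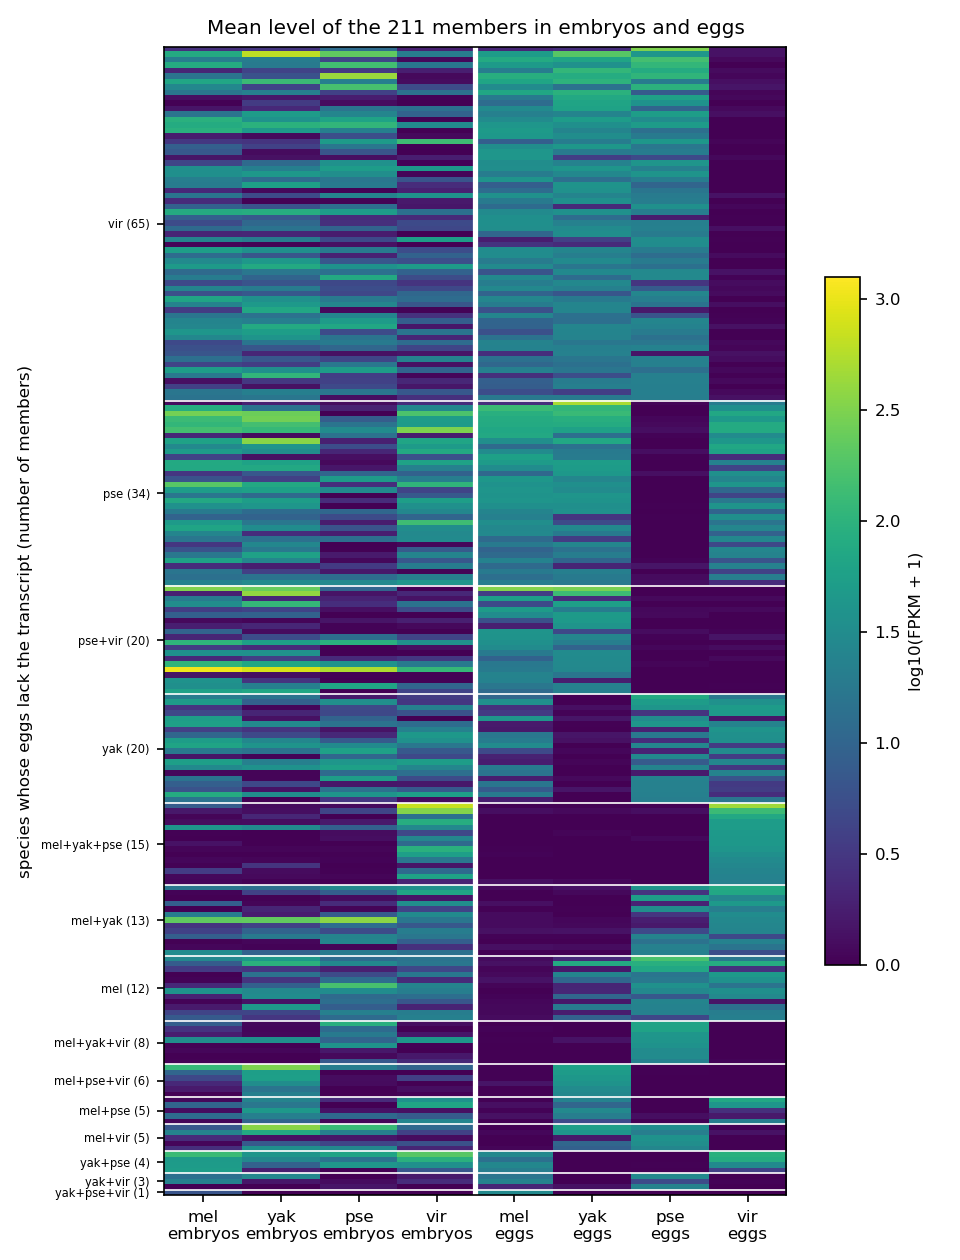
Mean level of each of the 211 members, 1 line per member, in embryos (left block) and eggs (right block) of the 4 species, as log10(FPKM + 1) by color. Lines are grouped by the species whose eggs lack the transcript, with the number of members in parentheses. Dark cells of the egg block mark the lacking species, and the same columns of the embryo block are dark for many members but not for all.

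The highest egg mean of a member had a median of 34.6 FPKM, 161 members stayed below 50 FPKM and 14 reached 100 FPKM. Of the 211, 67 stood at 20 FPKM or more in every species that did not lack them, while 69 stood between 0.5 and 5 FPKM in at least 1 of those species. Near the upper threshold, CG9413 (20 FPKM) and FBgn0023000 (20.1 FPKM) were just inside, and Ndae1 and Socs36E (19.9 FPKM each) just outside. Near the lower threshold, regucalcin (0.497 FPKM in yak eggs) and dj-1beta (0.490 FPKM in vir eggs) were just inside, and Klp64D (0.511 FPKM) and pug (0.533 FPKM) just outside. The 2 eggs of a species agreed closely where a member was at 20 FPKM or more. Their levels differed by a median of 1.17-fold in mel, 1.12-fold in yak and 1.11-fold in vir, and by over 2-fold for 2 members, both in mel.

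The low egg values were of different kinds. Of the 321 pairs, 120 had an egg mean of exactly 0, 43 a mean above 0 but below 0.001 FPKM, 64 a mean between 0.001 and 0.1 FPKM and 94 a mean between 0.1 and 0.5 FPKM. Means below 0.001 FPKM but above 0 occurred in yak (11), pse (16) and vir (16) and in no mel pair (0). Reads that matched several transcripts were divided among them by eXpress, whose part in these values was not tested. Every egg of the lacking species was below 0.5 FPKM for 60 of 64 members in mel, 57 of 64 in yak and 101 of 108 in vir. Only 3 members were listed at 0 in every egg and embryo of every species that lacked them, l(1)10Bb and CG5704 in pse and CG10962 in yak, pse and vir.

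Most members carry only a catalogue name (129 CG symbols, and 2 without a symbol), and 80 have another name. Among enzyme families, 4 of the 6 cytochrome P450 genes (enzymes that oxidize hormones and toxins) that reached 20 FPKM in some species' eggs were members, namely Cyp4e2, Cyp6d2, Cyp6d4 and Cyp9c1. GstE5 and GstE7 were 2 of 4 glutathione S-transferase genes, which conjugate toxic compounds, and Gr47b, a gustatory receptor, the 1 of 1. Of the large housekeeping families, mRpL35 was the 1 member among 33 mitochondrial ribosomal protein genes. There was none among 55 cytoplasmic ribosomal protein genes, 9 vacuolar ATPase genes, 7 kinesin-like genes and 4 proteasome beta subunit genes. Members made up 5.44% of all genes at that egg level, so a 0 among 9, 7 or 4 genes cannot be set apart from that share. The kinesin-like Klp64D was just outside the lower threshold. Hsp67Ba was the 1 member among 5 genes with an Hsp symbol. Arm 2L held 25.1% of members against 18.8% of all genes, arm 3R 19.4% against 25.3%, and the X 15.6% against 16.9%.

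The annotated locus was often shorter in the species that lacked the transcript. The span from the first to the last base of a locus, in each species' own coordinates, was divided by the median span in the species whose eggs did not lack it. This ratio had a median of 0.839 over the 64 members lacking in mel, 0.643 over the 64 in yak, 0.735 over the 85 in pse and 0.857 over the 108 in vir. For genes at 20 FPKM or more that no species lacked, the same ratio to the other species had medians of 1.05 in vir, 1.03 in mel, 0.975 in pse and 0.969 in yak. A ratio under 0.5 was found for 39.1% of the members lacking in yak, against 2.92% of the genes that no species lacked. The same shares were 23.5% against 3.19% in pse, 18.5% against 2.24% in vir and 15.6% against 2.02% in mel. Overlap with another annotated gene was found for 57.3% of the 199 members present in the current D. melanogaster annotation and for 54.1% of the other genes at 20 FPKM or more. By the coordinates in the files, a lacking member overlapped another gene of the tables in 28.7% of cases in vir, against 23.5% of the genes that no species lacked. These shares were 25.9% against 19.6% in pse, 18.8% against 22.9% in mel and 14.1% against 19.3% in yak. Its part in the low egg values was not tested.

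Embryos are separate libraries that the rule did not use. The paper states that many transcripts at this stage are still maternal. Embryo levels can therefore hold what remains of the deposit that chose the members. How much remained was not tested, and the shares of all genes given below were not matched for egg level. Absence from the egg came with every level in the embryo, between 0 and 529 FPKM on average. Of the 321 pairs, 140 had an embryo mean below 0.5 FPKM in the lacking species, 141 between 0.5 and 20 FPKM and 40 at 20 FPKM or more. Of the members, 62 stayed below 0.5 FPKM in the embryos of every species that lacked them, while 33 reached 20 FPKM in embryos of at least 1 such species. The median embryo level of the lacking members was 1.23 FPKM in vir, against 15.4 FPKM over all genes in the same embryos. It was 0.881 against 15.1 FPKM in mel, 0.557 against 13.9 FPKM in pse and 0.483 against 14.5 FPKM in yak.

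**Figure D2:**
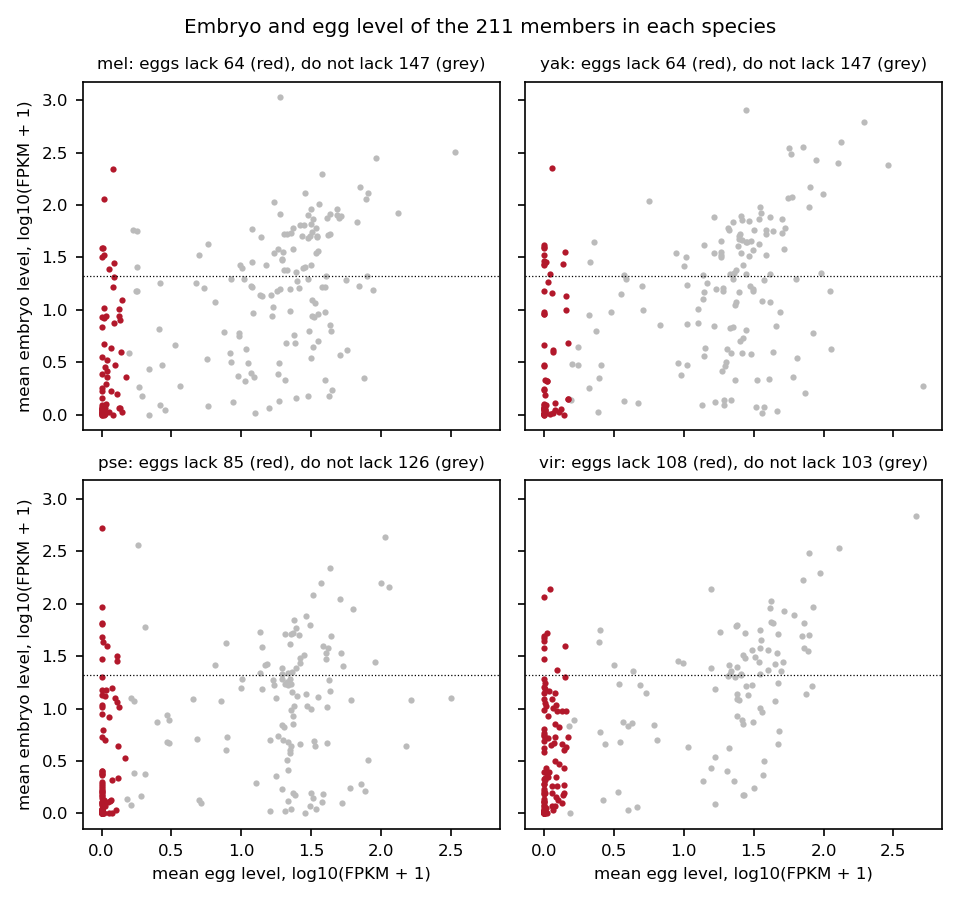
Mean embryo level (vertical axis) against mean egg level (horizontal axis) of the 211 members in each species, both as log10(FPKM + 1). Red points are members that the eggs of the species lack and grey points the remaining members. The dotted line marks 20 FPKM in embryos, and 12 red points in yak, 10 in pse, 10 in vir and 8 in mel lie at or above it.

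The embryos of lacking species were set against those of the other species with limma, on log2(FPKM + 1), in 1 fit of 22 embryos and all 5993 genes. Differences given below are on that scale, which understates changes of genes near 0, and adjusted p-values are limma's with Benjamini-Hochberg adjustment over all genes. Of the 211 members, 169 were lower in embryos of the lacking species, 25 were higher and 17 did not pass an adjusted p of 0.05. For 102 members every embryo of the lacking species was below every embryo of the other species. Species differ at most genes, so these totals need the shares of all genes beside them. Depending on the contrast, between 35.1% and 45.5% of all genes were lower, and between 3.69% and 18.2% did not overlap. In contrasts with a member called higher, between 35.1% and 44.8% of all genes were higher. Below, each count of a pattern stands beside the share in the same contrast. The fit shares 1 estimate of the spread over all groups, although embryos near 0 vary little on this scale.

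Members whose vir eggs lacked the transcript were lower in vir embryos in 49 of 65 cases (75.4%), against 42.2% of all genes, and higher in 11, against 40.5%. The median difference was −1.44, against −0.02 over all genes. All vir embryos were below all others for 28 of them, against 13.5% of all genes.

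SdhC, a subunit of succinate dehydrogenase in the respiratory chain, is a maternal transcript with a high level in the other eggs. It stood below 0.001 and at 0.0534 FPKM in the vir eggs, against 113 in the pse egg, 44.6 and 50 in mel eggs and 32.9 and 39.8 in yak eggs. Vir embryos had 20, 15.3, 22.1, 11.7 and 12.9 FPKM, against medians of 82.2 in mel and 18.9 in yak and against 121 to 159 FPKM in pse. The vir embryos overlapped those of yak only, and the difference of −1.77 ± 0.22 (SE) passed the test (limma adjusted p = 5.2e-07).

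Argk encodes arginine kinase, which buffers ATP. Its level was 0.157 and 0.122 FPKM in vir eggs, against 105 in pse, 77.3 and 96.0 in mel and 86.0 and 80.1 in yak. Vir embryos stayed between 0.138 and 0.322 FPKM. In embryos of the other species it spanned 4.01 to 31.8 FPKM in mel, 3.61 to 7.20 in yak and 394 to 459 in pse, so no vir embryo overlapped them (difference −4.75 ± 0.30 (SE), limma adjusted p = 2.6e-11).

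Drep-2, a relative of the apoptotic nuclease DFF, and MED28, a subunit of the Mediator complex that links activators to RNA polymerase, were near 0 at both stages. Vir embryos had 0.134 to 0.480 FPKM of Drep-2, against 17.4 to 169 FPKM in the other embryos, and the locus spans 3496 bases in vir against 10355 in mel. MED28 was at 0 in 4 vir embryos and at 0.668 FPKM in 1, against 23.5 to 49.8 FPKM elsewhere. Their differences were −5.50 ± 0.14 and −5.10 ± 0.12 (SE; limma adjusted p = 2.4e-17 and 1.4e-17). Of other named members, wcd, a factor of ribosome biogenesis, averaged 12.9 FPKM in vir embryos against 50.8 to 83.5 FPKM (difference −2.41), and Adgf-A, a secreted adenosine deaminase, 0.131 FPKM against 2.73 to 109 FPKM (difference −4.09).

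The largest rise of any member was CG7255. It was at 0.209 and 0 FPKM in vir eggs, against 42.8 in pse, 20.9 and 16.9 in yak and 2.65 and 12.3 in mel. Vir embryos had 156, 118, 125, 166 and 119.5 FPKM, all above the pse embryos (42.2 to 60.1) and far above those of mel (at most 3.25) and yak (at most 4.21). Its difference was 4.19 ± 0.20 (SE, limma adjusted p = 3.7e-13). Nhe2, a sodium/hydrogen exchanger, also rose: vir embryos had 32.9 to 76.8 FPKM against at most 29.4 FPKM elsewhere (difference 1.93), while its vir eggs held 0.0688 and 0.0403 FPKM. kraken, a hydrolase, had 32.3 to 40.8 FPKM in vir embryos against at most 27.2 FPKM (difference 1.65).

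**Figure D3:**
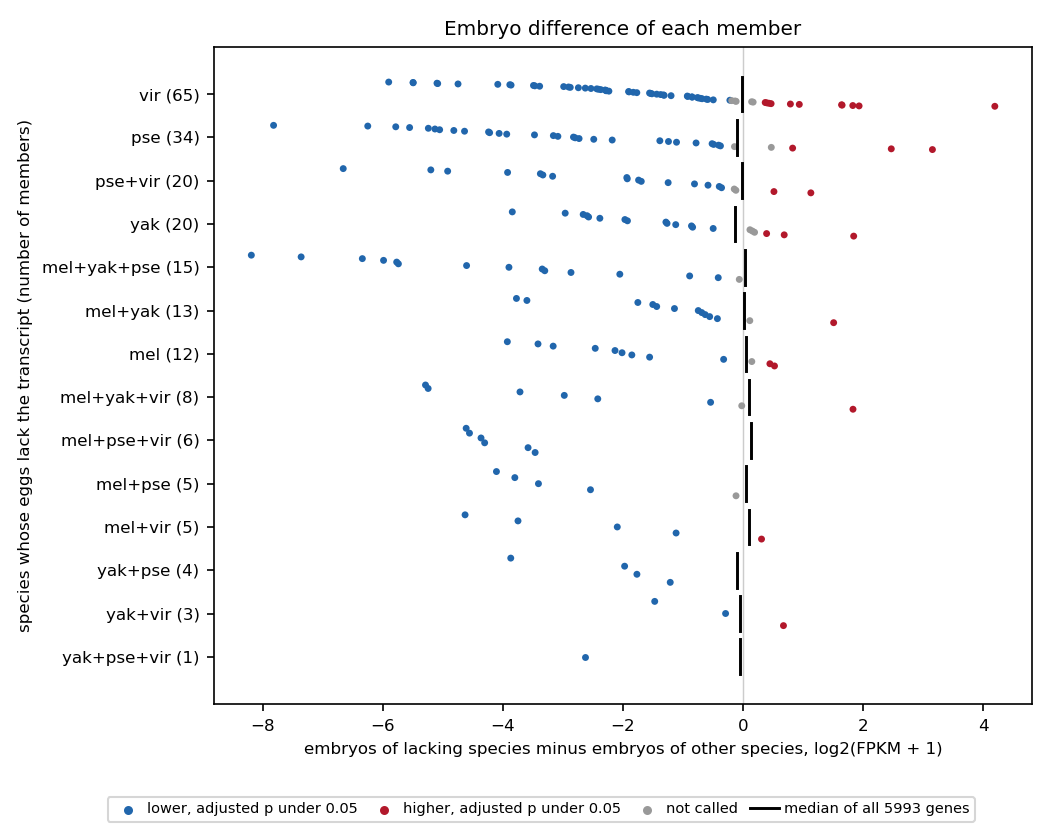
Difference between embryos of the lacking species and embryos of the other species for each of the 211 members, on log2(FPKM + 1), grouped by the species whose eggs lack the transcript. Blue points are lower, red points higher and grey points not called at a limma adjusted p of 0.05, and black bars give the median over all 5993 genes. Most points lie left of the bars, and 25 red points lie to their right, CG7255 the farthest at 4.19.

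Of the 34 members lacking in pse alone, 29 (85.3%) were lower in pse embryos, against 43.7% of all genes, and 3 were higher, against 37.2%. The median difference was −2.81, against −0.10 over all genes, and for 19 members the pse embryos lay wholly below the others, against 11.5% of all genes. Named ones include a splicing factor, an Argonaute protein and a Notch pathway factor.

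l(1)10Bb (FBgn0001491, release 5 coordinates X:11218330-11219332), the homologue of a conserved splicing factor, was listed at 0 in the pse egg and in all 5 pse embryos. Other eggs held 101 and 79.2 FPKM in mel, 128 and 122 in yak and 67.4 and 73.8 in vir. Embryos of those species had 252 to 344 FPKM in mel, 208 to 299 in yak and 124 to 201 in vir, the largest fall of this group at −7.82 ± 0.08 (SE, limma adjusted p = 1.8e-22). The annotated locus spans 263 bases in pse, against 1003 in mel, 638 in yak and 646 in vir.

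AGO2, the Argonaute protein that cleaves targets in RNA interference, stood below 0.001 FPKM in the pse egg, against 30.5 and 42.9 FPKM in mel, 34.4 and 32.6 in yak and 42.0 and 40.5 in vir. Pse embryos had 1.66, 0.969, 2.97, 0.950 and 1.36 FPKM, against 172 to 219 in mel, 56.2 to 89.7 in yak and 85.1 to 138 in vir. All pse embryos were below all others (difference −5.56 ± 0.14 (SE), limma adjusted p = 5.4e-17). Its egg value was above 0, and reads that match similar transcripts can be divided among them, so the pse level of AGO2 is uncertain. Whether its reads were divided in this way was not tested. The annotated locus spans 2822 bases in pse, against 6937 in mel, 5686 in yak and 4655 in vir.

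Su(H), the DNA-binding factor of Notch signalling, was at 0 in 4 pse embryos and below 0.001 FPKM in 1, against 28.9 to 58.1 FPKM in all other embryos. The pse egg held 0.0493 FPKM, against 30.3 to 42.5 FPKM in the other eggs. The same direction was seen for mRpL35 of the mitochondrial ribosome, at most 5.53 FPKM in pse embryos against at least 42.1 FPKM, and for Rrp40, an exosome subunit, at most 7.39 FPKM against at least 24.6 FPKM. Gprk1, a kinase of G protein-coupled receptors, averaged 7.30 FPKM in pse embryos against 50.9 to 271 FPKM, and its locus spans 793 bases in pse against 97803 to 148633 elsewhere.

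Other members lacking in pse were at higher levels in the embryo. Fas1, a cell adhesion protein, had 25.6 to 35.6 FPKM in pse embryos, against at least 97.1 FPKM elsewhere (difference −2.49), and 0.287 FPKM in the pse egg. MED8, a Mediator subunit, averaged 29.0 FPKM in pse embryos, against 50.8 in mel, 57.4 in yak and 3.28 in vir, and was not called (0.47 ± 0.27 (SE), limma adjusted p = 0.12), though it was called higher (0.62) without the first vir female embryo. Against only mel and yak, whose eggs held 20 FPKM or more, it was called lower (−0.87, limma adjusted p = 0.0091). DnaJ-H, a co-chaperone, went the other way: pse embryos had 11.5 to 16.3 FPKM against at most 1.94 FPKM elsewhere (difference 3.15 ± 0.13 (SE), limma adjusted p = 8.4e-14). Its pse egg held 0.0780 FPKM, against 73.2 and 75.2 in mel, 10.8 and 14.1 in yak and 30.3 and 31.1 in vir.

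Members lacking in both pse and vir were present in the eggs of mel or yak only. Of these 20, 16 (80.0%) were lower in pse and vir embryos, against 42.8% of all genes, 2 were higher, against 41.5%, and 8 did not overlap, against 9.16%. The median difference was −1.72, against −0.02 over all genes.

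CG7840 (FBgn0032014, 2L:8305589-8306743) was below 0.001 FPKM in the pse egg and both vir eggs, against 339 and 335 FPKM in mel eggs, the highest mel egg level of any member, and 271 and 305 FPKM in yak eggs. All 5 vir embryos were at 0, and pse embryos had 4.39, below 0.001, 13.9, 17.1 and 7.89 FPKM, against 288 to 395 in mel and 139.7 to 299.9 in yak. Its difference was −6.66 ± 0.31 (SE, limma adjusted p = 1.9e-13). CG4101 and Ipk2, a kinase of inositol polyphosphates, were both at an embryo mean of 0 in pse and in vir, against at least 36.1 FPKM of CG4101 and at least 7.83 FPKM of Ipk2 in mel and yak.

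Nrt is the opposite case. It encodes neurotactin, a membrane adhesion protein. Its egg level was below 0.001 FPKM in pse and 0 in both vir eggs, against 19.3 and 16.3 in mel and 28.3 and 25.4 in yak. Embryos nonetheless reached 561, 466, 396, 654 and 512 FPKM in pse and 108, 120.5, 107, 159 and 79.0 in vir, against medians of 1030.3 in mel and 826 in yak. No embryo of pse or vir reached the lowest of mel and yak, 665 FPKM (difference −1.93 ± 0.10 (SE), limma adjusted p = 1.3e-12). The annotated locus spans 2853 bases in pse and 2600 in vir, against 11393 in mel and 10995 in yak.

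PSR, homologous to a protein first named as a phosphatidylserine receptor, had below 0.001 FPKM in the eggs of pse and vir, against 47.2 and 22.6 in mel and 17.6 and 22.7 in yak. Pse embryos held 79.0 to 105 FPKM and vir embryos 26.7 to 44.1, against 81.1 to 129 in mel and 33.6 to 91.2 in yak. The groups overlapped, and the difference was small (−0.36 ± 0.12 (SE), limma adjusted p = 0.011) and lost its call in female embryos alone (−0.35, limma adjusted p = 0.092). RhoGEF3 averaged 38.5 FPKM in pse and 18.0 in vir embryos, against 106 in mel and 70.1 in yak (difference −1.70). CG1774 was high in yak alone: embryos of pse, vir and mel stayed at or below 1.43 FPKM, against 317 to 462 FPKM in yak embryos.

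**Figure D4:**
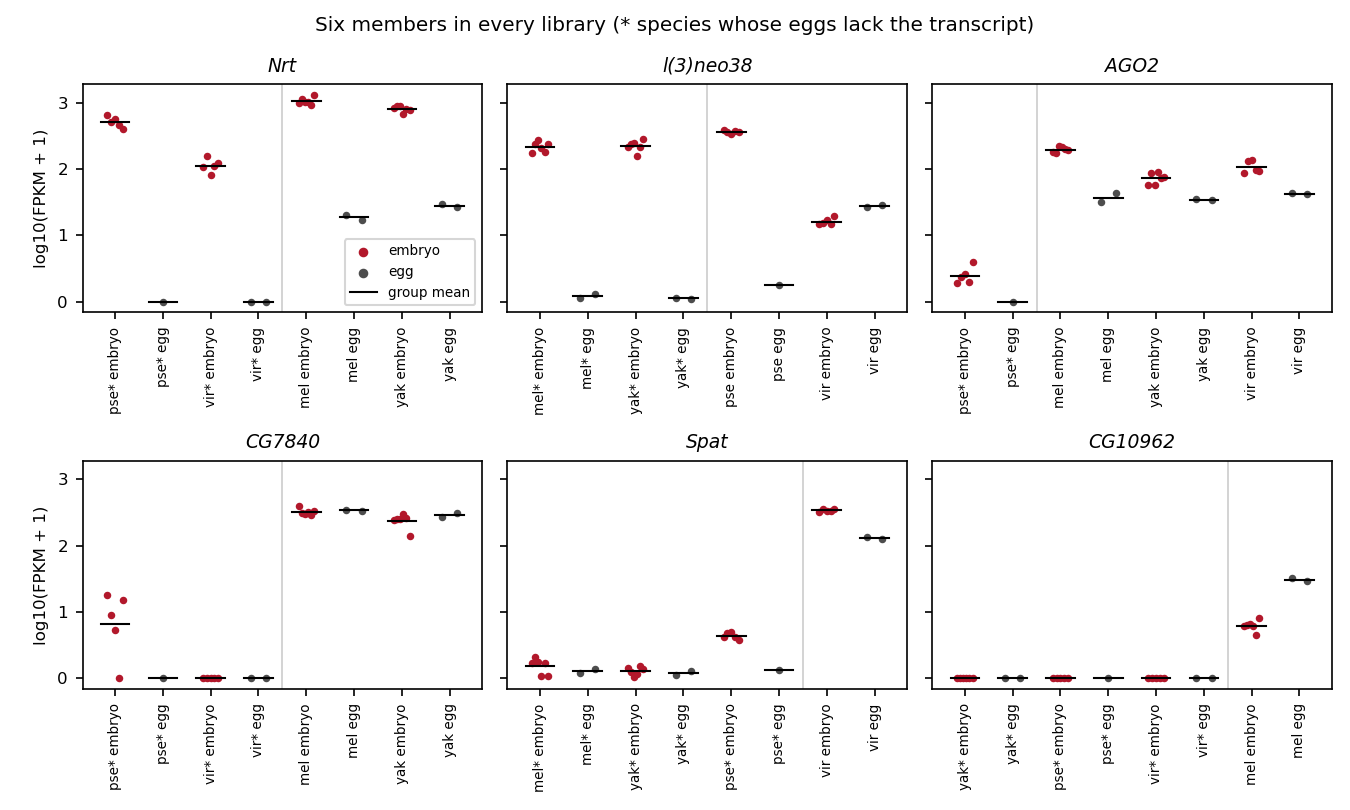
Level of 6 members in every kept library as log10(FPKM + 1): red points are embryos, dark points eggs, and black bars group means. Species marked with * lack the transcript in eggs and stand left of the grey line. Nrt and l(3)neo38 were high in embryos of lacking species, whereas AGO2, CG7840, Spat and CG10962 stayed low or at 0 there.

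Of 20 members lacking in yak alone, 14 (70.0%) were lower in yak embryos, against 45.5% of all genes, 3 were higher, against 35.1%, and 5 did not overlap, against 7.26%. The median was −1.19, against −0.13 over all genes. Dpy-30L1, a subunit of the complexes that methylate histone H3, rested on uneven libraries: 4 yak embryos were at 0, 1 at 0.0447 and 1 male at 48.7 FPKM, against 35.3 to 67.0 in mel, 24.4 to 39.8 in pse and 0 to 7.02 in vir. Its difference was −2.96 ± 0.60 (SE, limma adjusted p = 0.00020) and was not called in male embryos alone (−2.12, limma adjusted p = 0.097). nAcRalpha-80B, a nicotinic acetylcholine receptor subunit, averaged 0.396 FPKM in yak embryos, against 51.6 in mel, 8.79 in pse and 0 in vir (difference −2.57), with a locus of 583 bases in yak against 77543 in mel. msl-2, the male-specific subunit of the dosage compensation complex, had 0.169 and 0.0475 FPKM in yak eggs, against 1.03 and 0.540 in mel, 6.76 in pse and 28.9 and 24.2 in vir. Its yak embryos averaged 21.2 FPKM, against 41.2 to 55.3 FPKM elsewhere (difference −1.27). Lhr, known for its role in hybrid lethality between D. melanogaster and a sister species, was below 0.001 FPKM in yak eggs and averaged 37.5 FPKM in yak embryos, against 25.2 to 57.4 FPKM. It was not called (0.11 ± 0.10 (SE), limma adjusted p = 0.30), but was called lower (−0.60, limma adjusted p = 0.00028) against only pse, the species with 20 FPKM or more in eggs.

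Of the 15 transcripts found in vir eggs only, 14 (93.3%) were lower in mel, yak and pse embryos than in vir, against 40.5% of all genes, none (0) was higher, and 13 did not overlap, against 18.2%. Their median difference was −3.90, against 0.02 over all genes. They include genes known for work in nerve, eye and metabolism.

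CG12947 (FBgn0037753, 3R:5605785-5608779) was the most abundant: eggs of mel, yak and pse held at most 0.0723 FPKM, against 437 and 475 FPKM in vir eggs. In embryos it reached 9.57 FPKM at most in mel, 0.504 in yak and 0.424 in pse, against 570.0 to 813 in vir, a difference of −8.19 ± 0.12 (SE, limma adjusted p = 1.3e-20). Spat, a serine-pyruvate aminotransferase, had 0.210 and 0.364 FPKM in mel eggs, 0.116 and 0.298 in yak and 0.319 in pse, against 132 and 124 in vir. Embryos stayed at or below 1.06 FPKM in mel and 0.517 in yak and between 2.79 and 3.97 in pse, against 324 to 357 in vir (difference −7.36).

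inaD, the scaffold of the phototransduction complex, had at most 0.205 FPKM in embryos of mel, yak and pse, against 65.4 to 115 FPKM in vir. For Eaat1, a glutamate transporter of glia, these values were at most 0.418 FPKM, against 57.6 to 64.4 FPKM. Both Eaat1 and Mmp1, a matrix metalloproteinase, were at 0 in every egg of mel, yak and pse, against 21 and 24.8 FPKM of Eaat1 and 29.7 and 58.3 FPKM of Mmp1 in vir eggs. Cyp6d2 also belongs here, with at most 0.616 FPKM in those embryos against 22.8 to 31.9 FPKM in vir.

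CG1268 departs from the rest of this group. Its eggs were at 0 in mel, yak and pse, against 56.0 and 45.0 FPKM in vir, but embryos had 28.7 to 57.9 FPKM in mel, 23.0 to 35.6 in yak and 4.24 to 13.3 in pse, against 21.7 to 34.4 in vir. The groups overlapped, and the difference of −0.41 ± 0.14 (SE, limma adjusted p = 0.011) was −0.25 and not called (limma adjusted p = 0.16) without the second vir male embryo.

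For the 13 members lacking in both mel and yak, 11 (84.6%) were lower in the embryos of these species, against 41.5% of all genes, 1 was higher, against 42.8%, and 3 did not overlap, against 9.33%. The median was −0.75, against 0.02 over all genes. The member that rose was l(3)neo38, a zinc-finger protein. Its eggs had 0.131 and 0.303 FPKM in mel and 0.160 and 0.120 in yak, against 0.817 in pse and 25.5 and 28 in vir. Embryos had 174 to 271 FPKM in mel and 157 to 284 in yak, against 341 to 387 in pse and 13.7 to 18.4 in vir. The embryos of mel and yak were thus above vir and below pse, and their difference from the mean of these was 1.51 ± 0.10 (SE, limma adjusted p = 2.2e-11). dpr19, a cell surface protein of the immunoglobulin family, did not overlap: 13.8 to 18.1 FPKM in mel and 8.03 to 18.2 in yak embryos, against 23.3 to 35.1 in pse and 31.1 to 38.2 in vir. Cyp9c1 was at most 0.0814 FPKM in mel embryos and 0.231 in yak, against 22.1 to 29.7 in pse and 5.64 to 8.35 in vir.

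Of the 12 members lacking in mel alone, 9 (75%) were lower in mel embryos, against 37.6% of all genes, 2 were higher, against 42.3%, and 5 did not overlap, against 5.97%. The median difference was −1.94, against 0.06 over all genes. e(y)2b, a relative of a subunit shared by the SAGA coactivator and the mRNA export machinery, had 0.337 and 0.390 FPKM in mel eggs, against 82.6 and 73.0 in yak, 89.7 in pse and 83.4 and 80.6 in vir. Mel embryos held 4.73 to 9.73 FPKM, against 71.7 to 126 in yak, 21.3 to 32.8 in pse and 11.4 to 18.8 in vir, with no overlap (difference −2.13 ± 0.16 (SE), limma adjusted p = 3.3e-10). Sdic2 was below 0.001 FPKM or at 0 in all mel embryos, against 2.92 to 18.6 FPKM elsewhere. It belongs to a cluster of near-identical copies in D. melanogaster, among which reads can be divided, so its mel level is uncertain. The loci paired with it span 8505 bases in yak, 2935 in pse and 11677 in vir, against 4451 in mel. Whether they hold the same gene was not tested.

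Transcripts present in pse eggs only, and so lacking in mel, yak and vir, numbered 8. Of these, 6 were lower in embryos of the lacking species, against 37.2% of all genes, 1 was higher, against 43.7%, and 6 did not overlap, against 13.2%. CG7196 stayed at or below 0.178 FPKM in embryos of mel, yak and vir, against 34.2 to 43.0 FPKM in pse embryos (difference −5.25 ± 0.06 (SE), limma adjusted p = 1.1e-21). The member that rose was rpr, which triggers apoptosis by binding inhibitors of caspases. Its eggs had at most 0.0949 FPKM in mel, 0.546 in yak and 0 in vir, against 40.1 in pse. Embryos had 15.4 to 56.9 FPKM in mel, 22.6 to 40.6 in yak and 20.4 to 62.9 in vir, all above the 6.02 to 14.1 FPKM of pse (difference 1.83 ± 0.24 (SE), limma adjusted p = 9.5e-07).

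The 6 transcripts found in yak eggs only were all lower in embryos of mel, pse and vir, against 35.1% of all genes, and all 6 did not overlap, against 7.26%. They include receptors and a detoxifying enzyme. 5-HT2, a serotonin receptor, was at 0 in all pse embryos, at most 0.0296 FPKM in vir and 6.5 to 12 in mel, against 44.2 to 63.8 in yak (difference −4.61 ± 0.10 (SE), limma adjusted p = 4.2e-18). Gr47b averaged 3.69 FPKM in mel, 0.284 in pse and 2.83 in vir embryos, against 56.0 in yak. GstE5 averaged 1.29, 0.223 and 0 FPKM in mel, pse and vir, against 32.1 in yak. CG3502 was absent from mel eggs in the same sense (0 and 0.0672 FPKM), but mel embryos reached 101 to 125 FPKM, against 267 to 373 in yak.

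The remaining patterns were small. Among 5 members lacking in mel and pse, 4 were lower, against 37.9% of all genes, and 3 did not overlap, against 3.69%. Of 5 lacking in mel and vir, 4 were lower, against 35.1%, 1 was higher, against 44.8%, and 2 did not overlap, against 3.74%. The 4 lacking in yak and pse were all lower, against 44.8%, and 3 did not overlap, against 4.66%. A pair of them act in splicing. snRNP-U1-C, a protein of the U1 particle that recognizes 5′ splice sites, was below 0.001 FPKM in yak and pse eggs, against 31.4 and 23.2 in mel and 109.8 and 75.9 in vir. Its embryos had 15.7 to 83.7 FPKM in yak and 43.7 to 87.4 in pse, against 112 to 146 in mel and 172 to 233 in vir (difference −1.77 ± 0.22 (SE), limma adjusted p = 6.4e-07). Prp18, a splicing factor of the later steps, averaged 8.17 FPKM in yak and 41.8 in pse embryos, against 49.9 in mel and 35.2 in vir (difference −1.21). Among 3 lacking in yak and vir, 2 were lower, against 40.9%, 1 was higher, against 37.9%, and none (0) was without overlap, against 4.15%. The 1 member lacking in yak, pse and vir, CG10962, was lower, against 42.3% of all genes, and did not overlap, against 10.5%. CG10962 was at 0 in every library of these species, against 31.5 and 27.9 FPKM in mel eggs and 3.48 to 7.22 in mel embryos. Its locus spans 983 to 1315 bases in those species, against 76082 in mel.

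Locus span and the embryo call were set side by side as a description. Of 32 members with a span ratio under 0.5 in every lacking species, 28 (87.5%) were lower in embryos of those species, and 12 stayed below 0.5 FPKM there. Of 159 with a ratio of at least 0.5 in every lacking species, 125 (78.6%) were lower and 42 stayed below 0.5 FPKM. Over all genes, between 35.1% and 45.5% were lower, depending on the species set against each other. The annotation is part of the measurement, since reads were assigned to annotated transcripts. Its part in these differences was not tested.

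Where eggs carried a member at 20 FPKM or more, its later level varied with the species. In pse, the embryo level over the egg level had a median of 0.400 over 77 such members, against 0.799 over the genes that no species lacked. These medians were 0.711 (68 members) against 0.937 in vir, 0.914 (76 members) against 0.829 in mel and 1.00 (88 members) against 0.821 in yak. Embryo means below 5 FPKM were found for 35.1% of such members in pse, against 10.3% of the genes that no species lacked. The shares were 21.6% against 10.7% in yak, 17.1% against 9.82% in mel and 11.8% against 5.41% in vir. Egg levels enter both quantities, which are given as a description. The egg level of pse is that of 1 egg, and that of each other species a mean of 2. A difference of pse from the others therefore cannot be told apart from the number of eggs. CG4198 is an extreme example, with at most 1.90 FPKM in a yak embryo, against 523 and 504 FPKM in yak eggs.

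An earlier study classed mel genes by allele-specific sequencing as maternal, zygotic or both, and the authors deposited these classes. Of the 64 members lacking in mel, 31 were zygotic, 9 both, 3 maternal and 21 without a class. Of the 147 not lacking in mel, 5 were zygotic, 25 both, 111 maternal and 6 without a class. The classes of the other species were predicted by the authors from egg and embryo levels and so contain the values that chose the members. Among lacking members they read zygotic for 53 of 64 in yak, 70 of 85 in pse and 91 of 108 in vir.

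Few of the 211 members differed between the sexes. The counts are too small to set their share apart from that of all genes. In mel 1 was higher in females and 2 in males, against 3.34% of all genes in either direction. The counts were 4 and 1 in yak, against 2.99%, 5 and 5 in pse, against 6.17%, and 4 and 1 in vir, against 3.05%. In all, 14 members were called in at least 1 species, with 23 calls. Of these, 9 held under all 28 alternatives tried (msl-2 in all 4 species, CG42569 in yak and pse, CG4586 in mel, CG11696 and RhoGEF3 in pse), 14 were lost under at least 1 and 12 on leaving out a single embryo. Of the 10 calls in pse, 8 lay on its XL or XR arms, which hold 34.1% of members and 35.0% of all genes, and in yak 4 of 5 lay on the X, which holds 15.6% of members and 16.9% of all genes. The pse X is larger because the arm homologous to D. melanogaster 3L is joined to it. The paper places most of its strongly sex-biased genes on the sex chromosomes in every species, so these positions are not particular to the members. Those genes are mostly female-biased in the paper. Of the calls on the pse X, CG11696, CG1268, CG8783, CG32702 and RhoGEF3 were higher in females, but CAH2, Anxb11 and CG42569 were lower. The X share of all genes called for sex is not given here.

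msl-2 was lower in females in all 4 species. Female embryos had 15.2, 24.7 and 19.6 FPKM in mel, against 102, 76.0 and 94.4 in males, and 6.72, 7.21 and 6.85 in yak, against 22.8, 47.7 and 36.0 in males. In pse they had 16.7 and 11.8 FPKM, against 67.1, 65.0 and 72.6 in males, and in vir 29.7, 27.2 and 22.6, against 67.5 and 87.8 in males. No female overlapped a male of the same species, and the differences were −2.20 in pse, −2.15 in mel, −2.14 in yak and −1.51 in vir (limma adjusted p at most 0.0018).

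CG42569, whose transcript the pse egg lacks, was X-linked in mel, yak and pse and turned with the species. Female embryos of pse had 23.6 and 24.7 FPKM, against 64.8, 78.5 and 68.7 in males, a difference of −1.51 ± 0.18 (SE, limma adjusted p = 6.2e-05). Females were higher in yak, with 5.38, 3.47 and 3.79 FPKM against 0.934, 2.01 and 1.47 in males (1.08 ± 0.16), and in vir, with 25.3, 24.5 and 26.6 against 14.0 and 16.3 (0.72 ± 0.18). The call in vir was lost on leaving out each of the 5 vir embryos in turn (limma adjusted p between 0.065 and 0.32). Anxb11, an annexin that binds membranes in the presence of calcium, had the same directions in yak, pse and vir, with a difference of 0.55 ± 0.12 in yak. Pse females had 0.352 and 0.379 FPKM against 1.51, 0.831 and 0.964 in males (−0.61 ± 0.13), and vir females 176, 154 and 152 against 113 and 112 in males (0.51 ± 0.13). With the pse female and vir male that the study removed, Anxb11 was not called in yak, pse or vir, and its difference in pse was −0.26 (limma adjusted p = 0.71). The removed pse female had 1.83 FPKM, above all 3 males.

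CG11696 was also called in more than 1 species, higher in females of pse (0.80 ± 0.13) and of vir (0.70 ± 0.13). CAH2, a carbonic anhydrase that vir eggs lack, was higher in mel females (1.05, 0.837 and 1.33 FPKM against 0.515, 0.126 and 0.348 in males) and lower in pse females (2.36 and 1.79 FPKM against 9.12, 6.14 and 5.59 in males). Its call in mel was lost on leaving out each of 5 mel embryos in turn (limma adjusted p between 0.051 and 0.18). CG1268 was higher in pse females, with 8.66 and 13.3 FPKM against 4.24, 5.03 and 5.4 in males (1.00 ± 0.25), but not without the second pse female (0.72, limma adjusted p = 0.25) or the first pse male (0.92, limma adjusted p = 0.072). RhoGEF3 had 47.0 and 51.0 FPKM in pse females against 29.8, 30.8 and 23.2 in males (0.80 ± 0.13), and CG1749 18.4, 18.6 and 15.2 FPKM in vir females against 7.95 and 9.58 in males (0.91 ± 0.16). CG1749 was not called without the second vir male (0.79, limma adjusted p = 0.084), nor CG11696 in vir (0.66, limma adjusted p = 0.067).

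**Figure D5:**
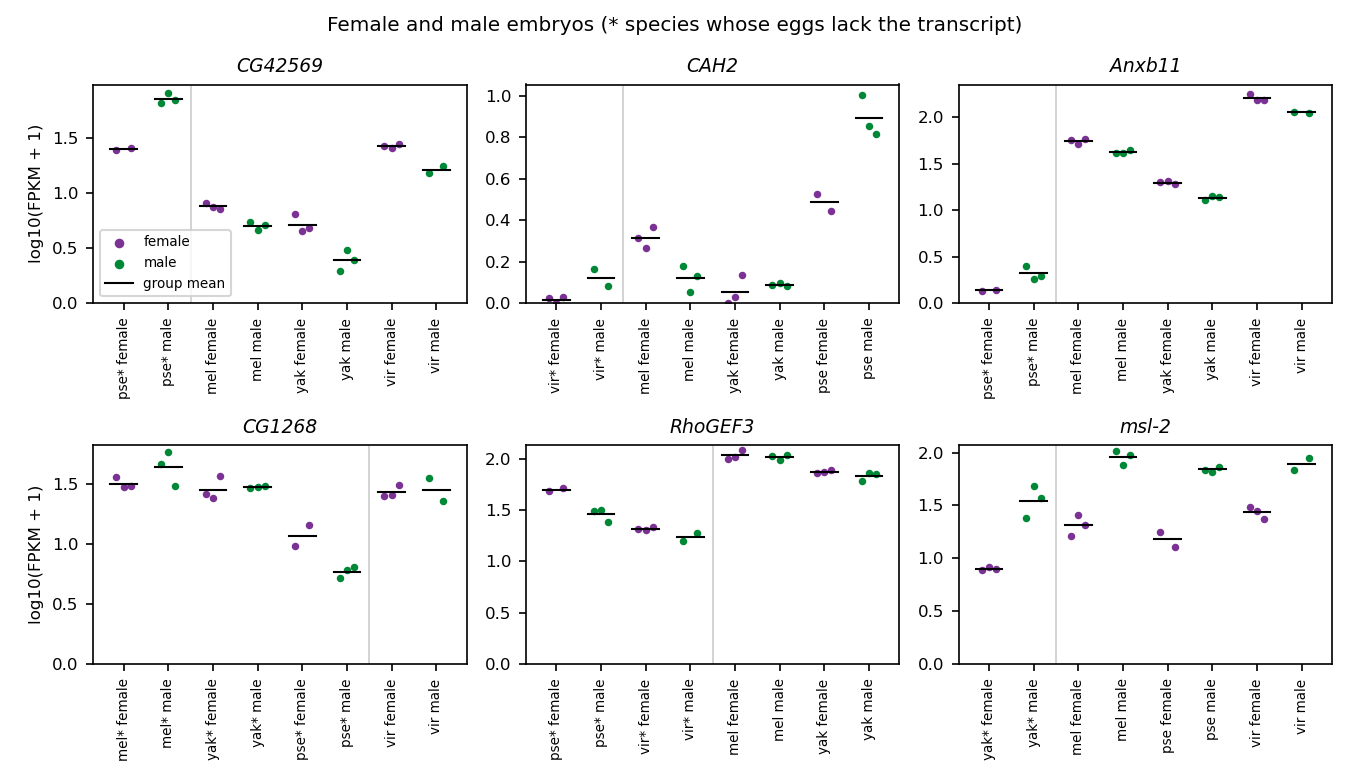
Level of 6 members in every female (purple) and male (green) embryo as log10(FPKM + 1), with black bars at group means. Species marked with * lack the transcript in eggs and stand left of the grey line. CG42569 was lower in females in pse and higher in females in yak and vir, and msl-2 was lower in females in all 4 species.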

How the data were processed

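The authors trimmed reads of single embryos and eggs, mapped them to annotated transcripts with Bowtie2 keeping all matches, and obtained gene levels as sums of eXpress transcript estimates, using the release 5 annotation of D. melanogaster and published annotations of yak, pse and vir. The deposited values are log10(FPKM + 1) of genes with 1-to-1 orthologs, in 6 tables with a different normalization each. The one used scales libraries to an equal 75th percentile over autosomal genes. The 16 group mean columns per table were not used. The 75th-percentile table was turned back to FPKM for 31 libraries, of which the study's 2 removed embryos were left out. The members, lists and comparisons were chosen with earlier results of these data known. The embryo and sex tests used limma 3.58.1 in R 4.3.3 with trend and empirical Bayes on log2(FPKM + 1), 8 groups of species and sex with species weighted equally, no filter, two-sided, checked on simulated data. Counts were not used here, so no count model was run and depth gives no interval. Named genes were those with the highest egg level, the largest embryo falls and rises, the highest embryo level in a lacking species, a sex call, a place next to a threshold, or a descriptive name. A single egg in pse gives no spread, and egg levels were only described. Alternatives were the other 5 tables, thresholds, the pseudocount, a filter on low values, single sexes, the removed embryos, a replicate block and leaving out each library. No sequences are shown.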

Additional observations from a re-analysis of the deposited data

Results flagged for a closer look

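The difference between females and males was compared between each species and the mean of the other 3, on log2(FPKM + 1), with limma over all genes. Among members, 8 such differences of 6 members passed an adjusted p of 0.05. The share of all genes that passed is not given, so this count cannot be read as high or low. CG42569 had the largest, −2.30 ± 0.20 (SE) in pse, and 1.15 ± 0.19 in yak. CAH2 had −1.41 ± 0.21 in pse and 1.25 ± 0.19 in mel, at embryo levels of at most 9.12 FPKM. Anxb11 had −1.09 ± 0.15 in pse, where its embryos stayed at or below 1.51 FPKM. CG1268 had 1.20 ± 0.28 and RhoGEF3 0.65 ± 0.15, both in pse, and CG1749 had 0.87 ± 0.19 in vir. Pse females and vir males have 2 embryos each, so these values rest on few libraries. They were not recomputed under the alternatives. Of the sex differences behind them, those of Anxb11, CAH2, CG1268 and CG1749 lost their call under at least 1. The vir difference of CG42569, which enters both of its values, lost its call under 9 of 28.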

How the results depend on the processing

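The count of members depended on the thresholds and the table. Against 211 members, quantile normalization gave 110 (109 of them shared), a highest egg mean of at least 10 FPKM gave 322 and one of at least 50 FPKM gave 50. The other tables gave 169 to 254, and leaving out 1 egg gave 212 to 219. The 3 members at 0 in every library of their lacking species became 11 when values below 0.1 FPKM were allowed, and 3 to 5 without 1 library. Members lower in embryos numbered 159 to 171 under the alternatives and 167 to 169 without 1 embryo, and those higher 20 to 27 and 23 to 26. Without overlap there were 98 to 105 (102 to 105 without 1 embryo), and with a sex difference 13 to 18 (11 to 17 without 1 embryo). Replicate numbers are shared across groups by number only (same-numbered females and males had r between −0.171 and 0.468, above 0.1 in 5 of 10 pairs). With replicate number as a block across all species, 168 members were lower and 24 higher. With a block of replicate number within each species, 13 differed by sex. Of 4512 values of 129 named members, 4463 kept direction and call, 38 lost the call and 6 gained it without a turn of sign. The sign turned for 5: CG10623 to −0.12 under quantile normalization, and MED8 to −0.87, Sulf1 to 0.24, Rab23 to −0.39 and Lhr to −0.60 when only species with egg means of 20 FPKM or more were compared. Of these, MED8, Lhr and Rab23 passed the test in the turned direction. The causes were not tested. CG15202, called higher, lost its call when each of 12 embryos was left out in turn. CG14931 lost it without either vir male (−0.69 and −0.68) or the third vir female (−0.56), and conv gained one (−0.18) without the second vir male.

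Limits: pse has 1 egg, depth is unknown, exact 0 and values just above it can be failed estimates, and levels between species depend on each annotation. Most genes differ between species in embryos, so calls are read against the share of all genes, which was not matched for egg level. Embryo levels can hold what remains of the egg deposit.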
